A study of Homo sapiens with 6 samples.

Results

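Methylation was described at 4 genes of developmental transcription factors, GATA2, NKX6-1, RAX and NKX2-2, in HepG2 cells with and without overexpressed DNMT3A. The data are the regions that the authors' deposited lists give as differing in methylation between a DNMT3A-overexpressing library and its same-numbered control, called pairs 1, 2 and 3 here. A region belongs to a locus when it overlaps a fixed window on hg38: chromosome 3: 128478000-128495000 for GATA2, chromosome 4: 84491000-84500000 for NKX6-1, chromosome 18: 59266000-59275000 for RAX and chromosome 20: 21510000-21519000 for NKX2-2. Of 4344 listed regions in the 3 lists, 19 lie in these windows, with 7, 7 and 5 in pairs 1, 2 and 3. The 4 genes were chosen by these same listed differences, because losses of methylation are listed there, so the counts and levels below describe these libraries and carry no test.

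HepG2 is an established human liver cancer line. Control cells, labelled wild type, carried a control lentivirus, and the other cells carried a lentivirus for DNMT3A, an enzyme that places new methyl groups on CpG sites. Each group had 3 libraries of reduced representation bisulfite sequencing (RRBS), in which the enzyme MspI cuts DNA at CCGG and bisulfite then tells methylated from unmethylated cytosines. Whether the 3 libraries of each group were grown as separate cultures is not in the labels, and the promoter that drives the introduced gene is not given in the sources used here. Mapped reads per library ranged from 25764323 to 29924507. Reads per region are not in the lists. The depth behind a level is therefore unknown, and levels are given without intervals.

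All 4 genes encode DNA-binding proteins that set cell identity in the embryo, in lineages other than liver. GATA2, a zinc finger factor, is needed by blood stem and progenitor cells and is active in endothelium. NKX6-1 and NKX2-2 are homeodomain factors of the ventral neural tube and of the pancreatic islet, where NKX6-1 marks beta cells, and RAX is the homeodomain factor of the early eye field. Genes of this kind often lie in long CpG-rich stretches, which in cells of other lineages are commonly held silent by Polycomb complexes and can take on DNA methylation in cancer cells.

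Of the regions inside the locus windows, some reached a promoter window of GATA2 or RAX. The 250 bases before the upstream start of GATA2 and before the start of RAX are shown because a gain of pair 2 and a loss of pair 3 lie there. Both sequences are RefSeq's, build GRCh38.p14, minus strand, 5′ to 3′, and capitals mark the part inside the listed region (for RAX, the part of it before the start).
GATA2 (chr3:128493202-128493451): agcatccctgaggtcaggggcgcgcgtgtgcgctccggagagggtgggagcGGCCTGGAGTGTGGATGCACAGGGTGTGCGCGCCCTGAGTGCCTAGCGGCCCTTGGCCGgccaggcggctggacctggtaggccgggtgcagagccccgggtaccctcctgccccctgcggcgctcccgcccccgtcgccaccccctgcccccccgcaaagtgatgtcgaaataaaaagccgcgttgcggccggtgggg
RAX (chr18:59273455-59273704): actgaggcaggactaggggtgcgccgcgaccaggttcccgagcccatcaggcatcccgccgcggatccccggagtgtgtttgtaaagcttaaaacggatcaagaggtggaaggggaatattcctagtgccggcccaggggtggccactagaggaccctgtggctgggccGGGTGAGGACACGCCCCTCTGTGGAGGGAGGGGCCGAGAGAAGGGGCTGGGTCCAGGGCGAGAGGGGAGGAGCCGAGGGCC
In GATA2 the capitals cover 59 bases with 4 CpG dinucleotides, and in RAX 81 bases with 4. The full windows, from 250 bases before to 50 after the start, hold 29 CpG dinucleotides in GATA2 and 20 in RAX, against a median of 14 over 34943 promoter windows of the RefSeq table. CCGG, the MspI site and the same on both strands, occurs 5 times in the GATA2 window and 3 times in the RAX window, and at least once in 63.05% of all windows. These letters say where MspI can cut and not which fragments were read.

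Of the 19 regions, 8 were losses (lower in the overexpressing library) and 11 were gains. Losses made up 18.4% of all listed regions and gains 81.6%; by pair, losses were 17.9%, 18.3% and 18.9% and gains 82.1%, 81.7% and 81.1% of the lists of pairs 1, 2 and 3. The loci differed among themselves. GATA2 had 11 regions with 2 losses and 9 gains, so its share of losses, 18.2%, lies at that of all listed regions, and most of what is listed there is a gain. NKX6-1 had 2 losses and 2 gains, and RAX and NKX2-2 had 2 losses each and no gain in their windows. The losses were the feature used for choosing the loci, and nothing is read from their share. Without pair 1 the 4 loci held 4 losses instead of 8, and without pair 2 they held 6 gains instead of 11. With a difference of at least 0.2 there were 7 losses and 4 gains. Over all listed regions the lower quartile of the gains was 0.201 and the upper quartile of the losses -0.191. That minimum thus takes a like share of both directions in the series. As the loci were chosen for losses, nothing is read from this balance either. With at least 10 CpG positions there were 6 losses and 7 gains.

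**Figure D1:**
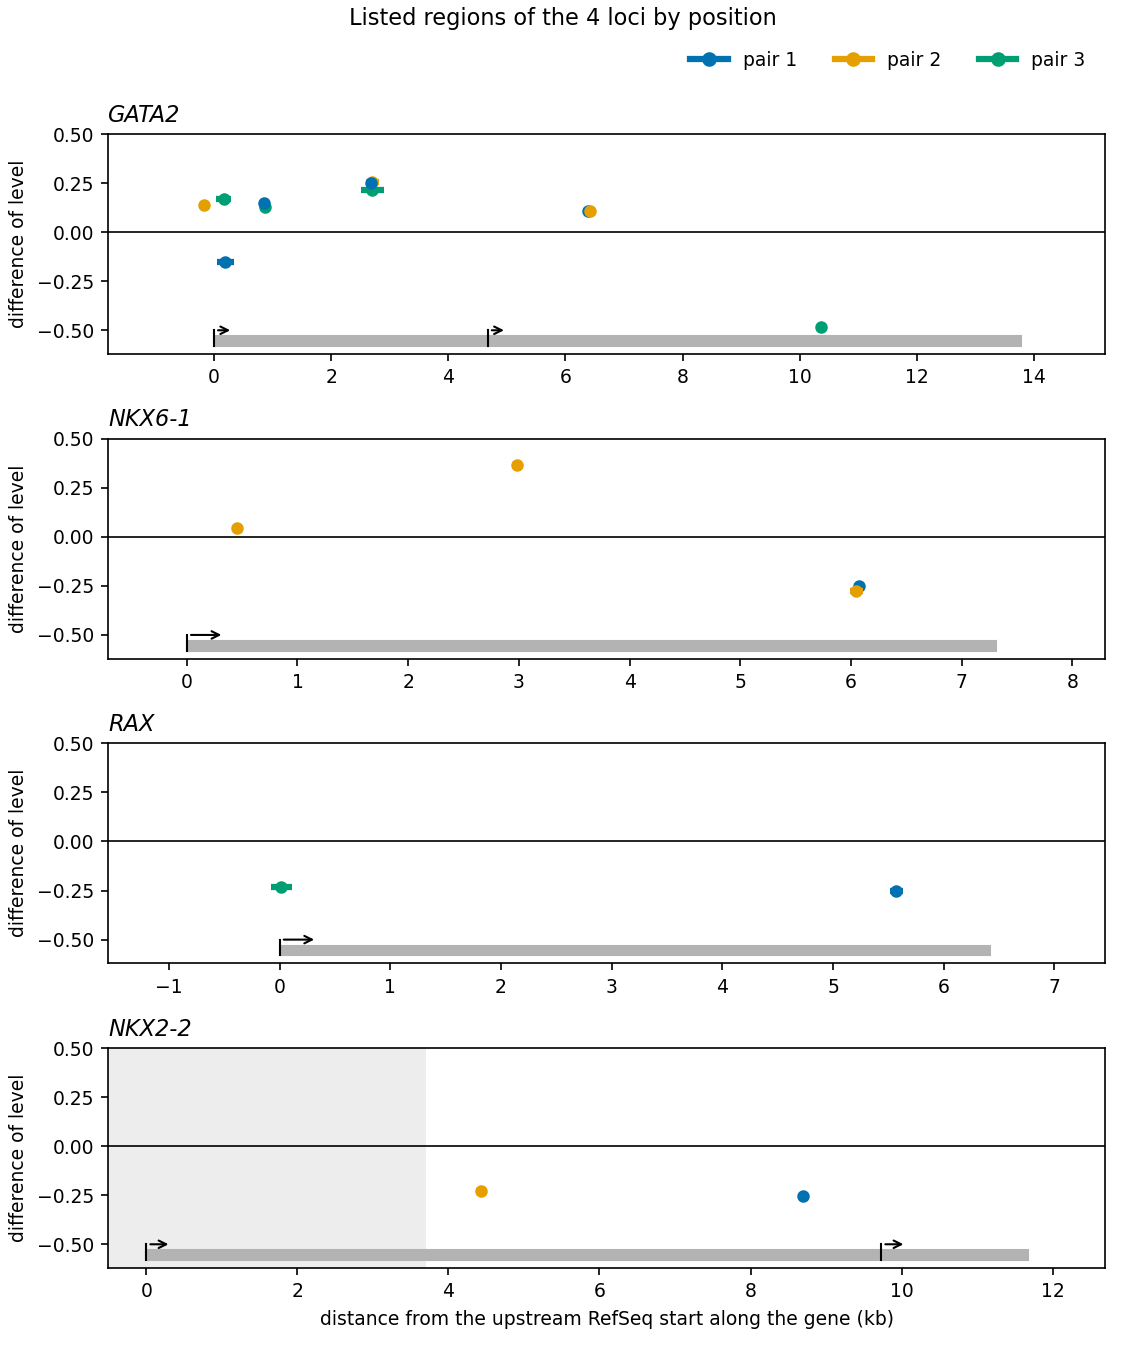
Each panel plots the listed regions of a locus, with the distance from the upstream RefSeq start along the gene (kb) on the x axis and the difference of methylation level (overexpressing minus control, fraction) on the y axis. Lines span the regions, points mark their middles, colours give the pair, the bar at the bottom is the gene with arrows at its starts, and the shaded part of NKX2-2 lies outside the window. GATA2 holds 9 of the 11 gains, and the loss of NKX6-1 near 6 kb is drawn for pairs 1 and 2.

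Merging listed regions that overlap by at least 1 bp left 13 distinct regions, of which 8 were listed in 1 pair, 4 in 2 pairs and 1 in all 3. Among them were 6 losses, 6 gains and 1 region with opposite directions. Of the losses, 5 were listed in a single pair. A region that a list does not hold was not called there, and its level in that pair is unknown.

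The loss that came back was in NKX6-1. In pair 1 the region at chromosome 4: 84493185-84493258 had a level of 0.584 in control 1 and 0.331 in overexpressing library 1, a difference of -0.253. In pair 2 the region starts at the same base and runs to 84493305, with levels of 0.577 and 0.300 and a difference of -0.277. The 2 controls lie within 0.01 of each other, and both overexpressing libraries lie far below them, without overlap. A list holds only regions that differ, so the separation within a pair follows from the choice. How many other recurrent regions of the series have groups without overlap was not counted. It sits in the 3′ part of the gene, 5987 to 6107 bp downstream of the start in pair 2 and 1200 bp from the 3′ end of the annotated gene. Exons and introns were not analysed here. Of 3313 distinct regions in the series, 37 (1.12%) were lower in at least 2 pairs, and this one is the single such region in the 4 loci. Leaving out pair 1 or pair 2 leaves no loss listed in 2 pairs.

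By its listed CpG sites, this NKX6-1 region was also among the denser losses, more so in pair 1 than in pair 2. Such a density depends on the edges of the listed region, which differ between these pairs. The listed numbers of CpG sites can count a site once on each strand. Over 113 listed regions that lie whole inside a promoter window, the listed number exceeded the number of CpG dinucleotides in 88 regions, equalled the number of CpG cytosines on both strands in 71 and was above it in 0. In these positions, the region had 26 CpG positions in 74 bp in pair 1, or 35.1 per 100 bp, the 11th highest density of that pair's 266 losses. In pair 2 it had 28 positions, or 23.1 per 100 bp, the 43rd highest of 262. Over all 798 listed losses the median was 12.8 per 100 bp.

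The 2 gains of NKX6-1 were both in pair 2. The first, at chromosome 4: 84496264-84496355 inside the gene, went from 0.0367 in control 2 to 0.400 in overexpressing library 2, a difference of 0.364 over 5 CpG positions. The second, at chromosome 4: 84498809-84498859, lies 433 to 483 bp downstream of the start. It stood at 0.0255 and 0.0681, a difference of 0.0426, the second smallest of the 1171 gains in that list. NKX6-1 thus had, within pair 2, gains nearer the start and a loss in the 3′ part.

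RAX had 1 loss at each end of the gene, in different pairs. In pair 3 the region at chromosome 18: 59273344-59273535 spans the start, from 81 bp before it to 110 bp after it, and its upstream part is the stretch in capitals above. The control stood at 0.702 and the overexpressing library at 0.469, a difference of -0.233 over 33 CpG positions. In pair 1 the region at chromosome 18: 59267823-59267942 lies 785 bp inside the 3′ end of the gene. Its levels were 0.438 in control 1 and 0.184 in overexpressing library 1, a difference of -0.254 over 13 positions. The differences are of like size, but each region has a single pair behind it and no replicate check.

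NKX2-2 has 2 starts in the RefSeq table, and both losses lie between them. In pair 1 the region at chromosome 20: 21513964-21514018 lies 1004 to 1058 bp before the downstream start. Control 1 stood at 0.751 and overexpressing library 1 at 0.499, a difference of -0.252 over 5 CpG positions in 55 bp. In pair 2 the region at chromosome 20: 21518197-21518317 lies 4372 to 4492 bp after the upstream start. Its levels were 0.348 and 0.122, a difference of -0.227 over 15 positions. These control levels, 0.751 and 0.348, are from different places and different libraries and are not compared.

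The window of NKX2-2 ends inside the gene, and a further region lies just outside it. At chromosome 20: 21522616-21522687, 2 bp inside the upstream end of the gene, pair 3 lists a gain from 0.464 to 0.616 over 34 CpG positions. It begins 3616 bp beyond the window. For the other 3 loci the nearest listed region outside the window lay 245767 bp away or more, from a gap of 245767 bp at NKX6-1 to 300952 bp at GATA2 and 595213 bp at RAX. Regions without a call are not in the lists, so how near other parts of the windows came to being listed is unknown.

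At GATA2, gains were listed again from pair to pair. The gene runs from 128493201 down to 128479422, with starts at 128493201 and 128488530. GATA2-AS1, a long noncoding RNA gene on the other strand, begins at 128489203 and overlaps the 5′ part of GATA2, so regions there belong to both. A region between the 2 GATA2 starts was listed in all 3 pairs, as 128490410-128490613 in pair 1, 128490376-128490613 in pair 2 and 128490303-128490688 in pair 3. The controls stood at 0.104, 0.0654 and 0.0731 and the overexpressing libraries at 0.356, 0.321 and 0.287. The groups do not overlap, and all 3 pairs moved the same way, by a mean of 0.240 ± 0.0233 (SD, n = 3 pairs). Each pair is listed because its libraries differ, and the share of such regions without overlap in the series was not counted. Of the 3313 distinct regions, 264 (7.97%) were higher in all 3 pairs.

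A second GATA2 gain, downstream of the second start, was listed in pairs 1 and 2. At 128486718-128486903 control 1 stood at 0.0310 and overexpressing library 1 at 0.140, and at 128486733-128486843 control 2 and overexpressing library 2 stood at 0.0646 and 0.175. The differences, 0.108 and 0.110, are nearly equal and small: they rank 1162nd of 1217 gains in pair 1 and 1116th of 1171 in pair 2. The region is CpG-dense, with 44 positions in pair 1 and 34 in pair 2, or 23.7 and 30.6 per 100 bp against a median of 10.8 over all listed gains.

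Another GATA2 gain, at 810 to 911 bp after the upstream start, began from a higher level. Pair 1 lists 128492311-128492391 at 0.454 in control 1 and 0.604 in overexpressing library 1, and pair 3 lists 128492290-128492353 with 0.632 and 0.760. Here the groups overlap, since control 3 stood above overexpressing library 1, while within each pair the overexpressing library was higher, by 0.150 and 0.128. Of the distinct regions of the series, 628 (19%) were higher in at least 2 pairs. GATA2 held 3 of them, and the other 3 loci none.

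The region beside the upstream start of GATA2 went in opposite directions. In pair 1, 128492864-128493151 is listed as a loss, with control 1 at 0.177 and overexpressing library 1 at 0.0239. In pair 3, 128492900-128493168 is listed as a gain, with control 3 at 0.0219 and overexpressing library 3 at 0.192. Control 1 and overexpressing library 3 are thus high and of similar level, overexpressing library 1 and control 3 are both near 0.02, and the groups overlap fully. Over the 2 pairs the mean difference was 0.00843 ± 0.228 (SD, n = 2). The regions share 252 bp and lie 33 to 337 bp after the start.

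The opposite calls at GATA2 were long and rich in CpG positions, with differences that were small for their lists. By size of the difference the loss, -0.153, ranked 231st of 266 losses in pair 1, and the gain, 0.170, ranked 972nd of 1158 gains in pair 3. The loss held 59 CpG positions, the 4th most in its list, and its area score, a signed statistic of the authors' caller, was the 3rd largest in size. The gain held 61 positions, the 14th most among its list's gains, with the 10th largest area score. In the whole series 58 of 723 distinct regions listed in at least 2 pairs (8.02%, or 1.75% of all 3313) went in opposite directions. Ranked by the smaller of their area scores, the GATA2 region came 1st of these 58, with 474 against a median of 82.6. It also came 1st by the smaller number of CpG positions. Depth at this region in the 4 libraries is not in the lists, and its part in the result was not tested.

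Upstream of the start, pair 2 lists a GATA2 gain at 128493342-128493400, the stretch in capitals above, 141 to 199 bp before the start. It went from 0.130 to 0.266, a difference of 0.136 over 9 CpG positions, and no other pair lists it. The remaining GATA2 region is a loss deep in the gene in pair 3, at 128482814-128482882, which is 3392 bp from the 3′ end. Its control level was 0.822 and its overexpressing level 0.341, and the difference of -0.481 is the largest of the 19 regions, over 6 CpG positions. It ranked 39th of 270 losses in that list by size. Both GATA2 losses thus come from a single pair each, and at one of them another pair lists a gain.

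**Figure D2:**
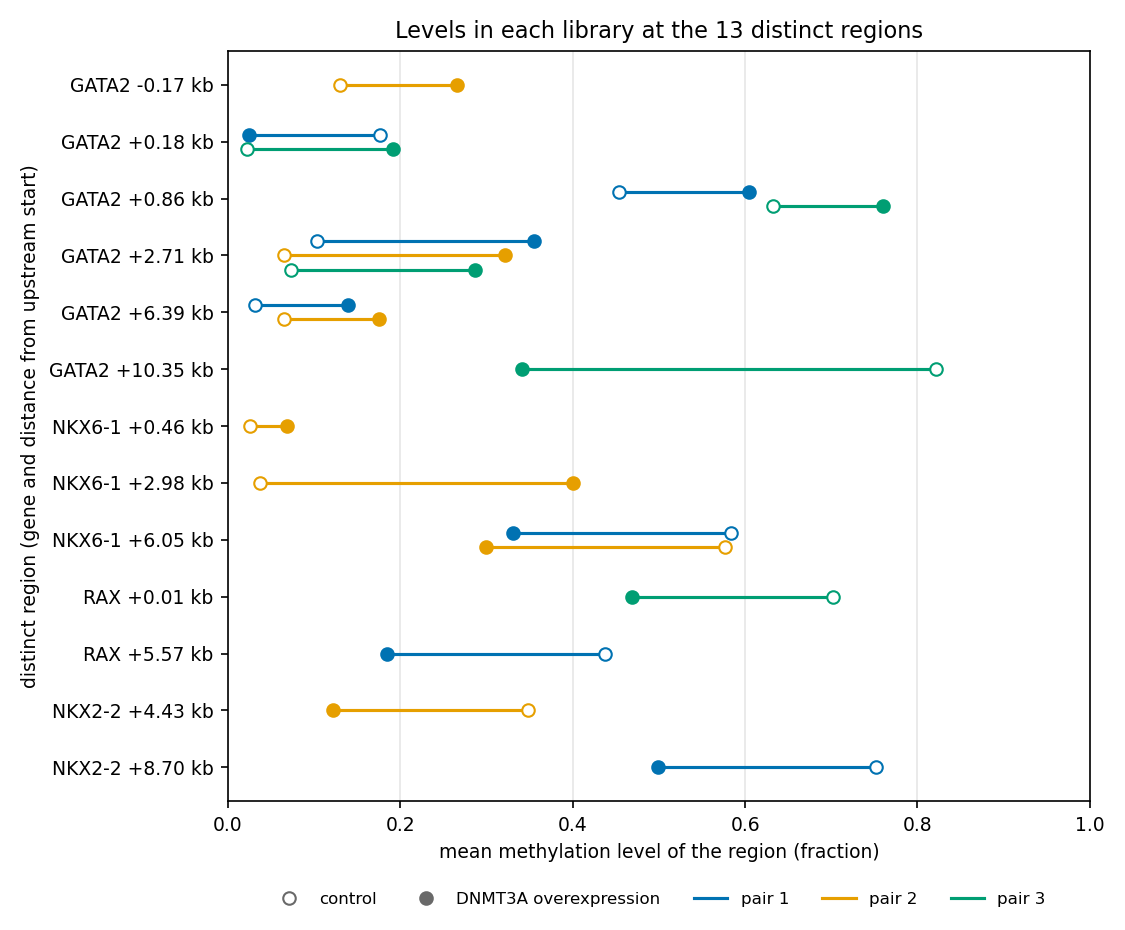
Each row is one of the 13 distinct regions, named by gene and by the distance of its middle from the upstream start (kb), and the x axis is the mean methylation level (fraction). Open circles are control libraries, filled circles overexpressing libraries, and a line joins the libraries of a pair, coloured by pair. At GATA2 +0.18 kb the lines of pairs 1 and 3 run in opposite directions between about the same levels, and at GATA2 +2.71 kb all 3 pairs run upward.

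Set beside all listed regions, the losses of the 4 loci had medians close to those of all losses in level and size, and more CpG positions. Their median control level was 0.581 (range 0.177 to 0.822, 8 regions), against 0.583 over all 798 losses. The median difference was -0.253, against -0.270, with all 8 between -0.481 and -0.153. They held a median of 20.5 CpG positions, against 12 over all losses. The 11 gains began lower than gains in general, with a median control level of 0.0654 against 0.195 over 3546 gains, and were smaller, with a median difference of 0.150 against 0.265. They held a median of 27 positions against 12. These medians come from few regions that share places and libraries, and are given as a description.

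**Figure D3:**
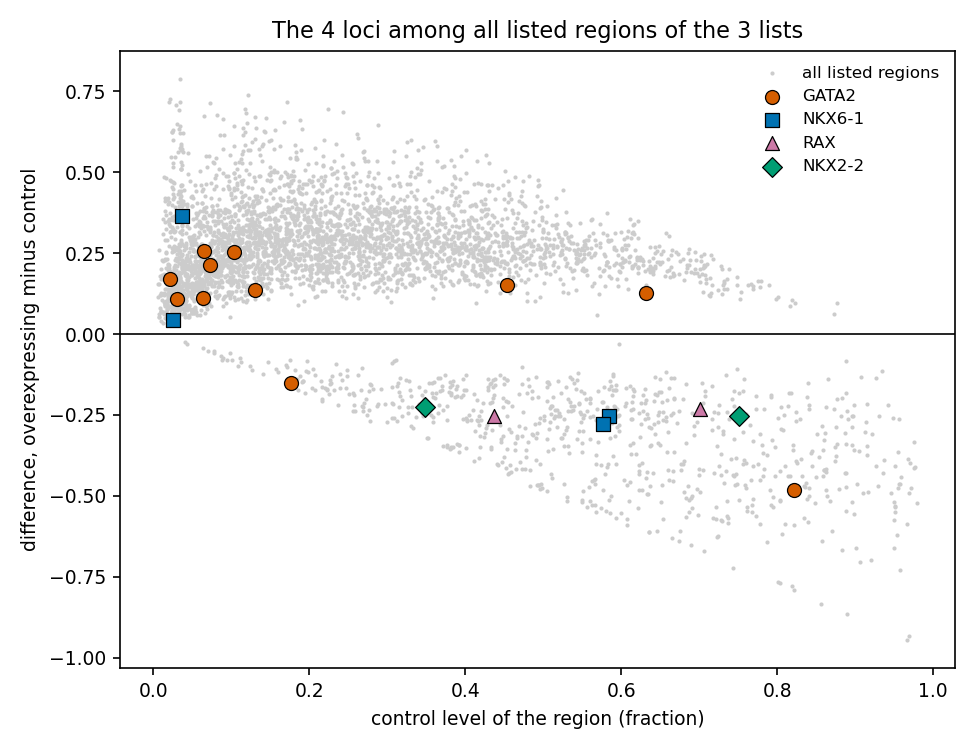
The x axis is the control level of a region and the y axis the difference (overexpressing minus control), both fractions; grey points are all 4344 listed regions and coloured symbols the 19 of the 4 loci. The 8 losses lie within the cloud of losses, and 8 of the 11 gains have control levels under 0.11.

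Related developmental genes were counted from 7 lists of 85 genes in all, matched to the RefSeq table and taken with regions within 1 kb of the gene. Of 20052 protein-coding genes, 477 (2.38%) had a listed loss and 1424 (7.1%) a listed gain. In the NK homeobox family, 5 of 14 genes had a loss and 3 had a gain. Besides NKX2-2 and NKX6-1, these were NKX1-1, NKX2-5, the cardiac factor, and NKX3-2, a factor of the axial skeleton. The gain counted for NKX2-2 is the one outside its window. The loci were chosen for losses, and 2 of these 5 genes are among them, so the count is not independent of the choice.

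The losses of the other NK genes were each listed in 1 pair. NKX1-1 (chromosome 4: 1403589-1403784) stood at 0.725 in control 3 and 0.507 in overexpressing library 3, over 69 CpG positions. NKX2-5 (chromosome 5: 173235055-173235211) stood at 0.524 and 0.342 in the same pair. At NKX3-2, chromosome 4: 13544491-13544589 was a loss in pair 1, from 0.436 to 0.273, inside a region that pair 3 lists as a gain, 13544433-13544596, from 0.243 to 0.409. NKX3-2 thus shows the same crossing of pairs 1 and 3 as the region at the start of GATA2.

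In the lists around RAX and GATA2, the losses were those of these chosen genes alone. Over all protein-coding genes 2.38% had a listed loss, so nothing is read from such counts in lists this short. Of the 11 eye field genes reported here, 1 had a loss, RAX, and none had a gain. In the GATA family 2 of 6 genes had a listed region, GATA2 and GATA6, a factor of endoderm and heart, whose 2 regions were both gains. Among 15 blood and endothelial factors, GATA2 was the one with a loss, and GATA2, ZFPM1, GFI1 and KIT had gains. ZFPM1 encodes a cofactor of GATA proteins, and its region at chromosome 16: 88508835-88508980 was listed in pairs 2 and 3, at 0.136 and 0.469 in pair 2 and 0.163 and 0.493 in pair 3, within a longer region of pair 1.

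Among 19 islet factors, 3 had a loss and 4 a gain, and among 17 genes of the ventral neural tube 2 had a loss and 4 a gain. NKX2-2 and NKX6-1 are in both lists. The third islet gene with a loss was MNX1, a homeobox factor of islets and motor neurons. In pair 2, chromosome 7: 157005477-157005709 went from 0.915 to 0.569 over 63 CpG positions. In pair 3, almost the same stretch went from 0.417 to 0.883 over 30 positions, so the levels do not rest on the same set of positions. The hepatocyte list, the one that fits the cell line, had 1 gene with a loss and 2 with a gain among 14. ONECUT1, a liver and pancreas factor, had both, with its largest loss at chromosome 15: 52789668-52789859 (0.449 and 0.251, pair 2), and HNF4A, the nuclear receptor of hepatocyte identity, had a gain. The median difference over the 59 regions of the 7 lists was 0.151, against 0.236 over all listed regions. The 59 regions, 14 of them losses, include those of the 4 genes chosen for losses. Without these genes 39 regions with 6 losses are left, so the median is not independent of the choice. The files hold no expression, so the identity of the cells was not checked by their markers.

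**Figure D4:**
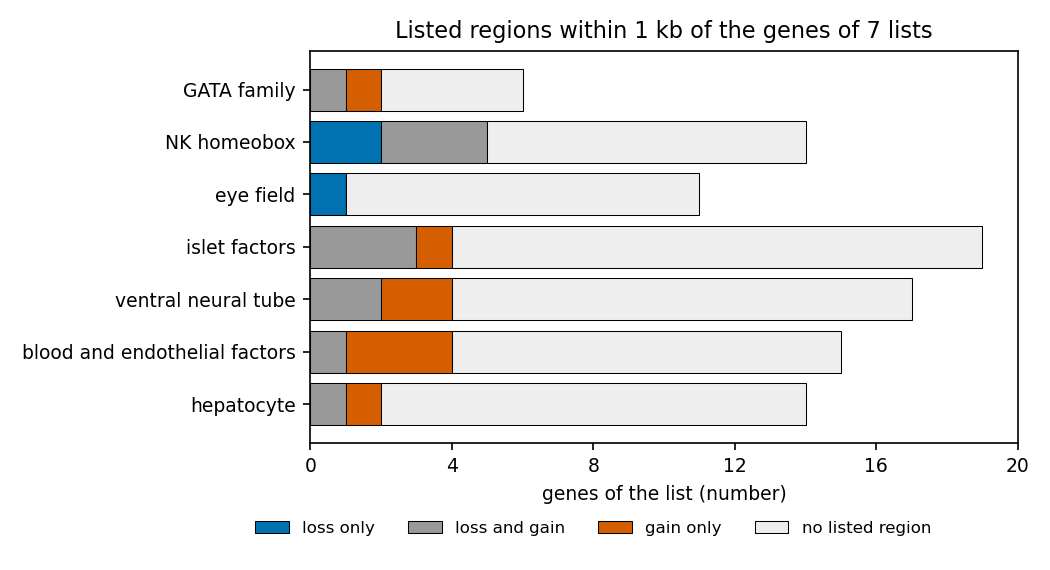
Bars give the number of genes in each of 7 lists (x axis) with a listed loss alone, with both a loss and a gain, with a gain alone, or with no listed region within 1 kb, pooled over the 3 pairs. The NK homeobox list has 5 of 14 genes with a loss and the eye field list 1 of 11; some genes stand in more than 1 list.

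With 2 listed losses within 1 kb, each of the 4 genes shares its count with many others: 62 protein-coding genes (0.309%) had 2 or more. Exactly 2 losses were listed at 53 genes. The other genes with the most losses were MEGF6 and GRIN2D, with 6 each, and TERT, DNMT3A and EPB41L3, with 4 each. These counts take a place once for each pair that lists it. As distinct regions the losses were 6 in MEGF6, 4 in GRIN2D, 3 in TERT, 3 in EPB41L3 and 2 in DNMT3A. In GRIN2D and in DNMT3A a region was listed as a loss in all 3 pairs. In MEGF6, a gene of 136836 bp, 13 regions were listed, 6 losses and 7 gains at scattered places. GATA2, with 2 losses and 9 gains, and NKX6-1, with 2 losses and 2 gains, also held both directions. TERT, the catalytic subunit of telomerase, and DNMT3A had losses and no gain, as RAX did. DNMT3A is also the introduced gene, and its losses came from all 3 pairs. Reads from introduced copies cannot be told from those of the cells' own gene in these lists. The 5 other genes were taken by the highest count of listed losses over the 3 pairs. They span 41902 bp or more, against 6417 to 13780 bp for the 4.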

How the data were processed

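Genomic DNA of HepG2 cells was cut with MspI, treated with bisulfite and sequenced, per the labels' protocols. Coordinates are on hg38, the build named in the submitters' processing notes. No aligner, region caller or threshold is named in the sources used here. Groups and library numbers come from the labels, and each list compares libraries of the same number, per the file headers.

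The deposited lists give, per region, the authors' mean methylation level in both libraries as a fraction from 0 to 1, the count of CpG positions, the difference and an area score. The deposited mapping summary gives read counts and percent values per library. The deposited difference equalled the overexpressing minus the control level within 1e-12.

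Regions were assigned to loci by coordinates and merged across lists at an overlap of at least 1 bp (Python 3.11.15, pandas 2.3.3). The merging was tested on simulated regions. Gene extents, starts and promoter sequences are RefSeq's, GRCh38.p14. A mean over several regions was weighted by CpG positions. Alternatives were other windows, minimums of 6 or 10 CpG positions, a minimum difference of 0.2, a stricter overlap and leaving out each pair. All listed regions of the 4 loci are named, from the lists the genes with a loss, and the 5 other protein-coding genes with the most losses. Genes with gains are named by count, and a few were given values after these were seen. A limma fit of the region listed in all 3 pairs had been planned and was not made, because its levels come from the calls that put it in the lists. 1 gene of the planned lists is not reported here. The loci, the gene lists and the alternatives were chosen with earlier results of these data known.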

Additional observations from a re-analysis of the deposited data

How the results depend on the processing

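Of 36 alternative values for counts and mean losses, 9 moved. The other 27 stayed within 1.5 times the reported count or, for the means, within the SD of the 2 losses of a locus. With 2 losses, the unweighted mean cannot leave that range. Leaving out a pair moves a mean only if the loss left out holds a large enough share of the CpG positions. The labels of the means thus follow from these weights and do not measure stability. A reversal could not occur, since counts have no sign and a mean over losses is always negative. Some of the 27 equal the reported mean because the pair left out holds no loss of that locus. With gene extents and 1 kb on either side, there were 8 losses and 12 gains. With at least 10 CpG positions 6 of the 8 losses and 7 of the 11 gains were left, and with a difference of at least 0.2 there were 7 losses and 4 gains. Leaving out a pair gave 4 to 6 losses, 6 to 8 gains, and 0 to 1 regions lower in 2 pairs. The weighted mean loss was -0.183 in GATA2 (-0.481 to -0.153 when leaving out a pair, since its 2 losses differ in size; unweighted -0.317), -0.266 in NKX6-1 (-0.277 to -0.253), -0.239 in RAX (-0.254 to -0.233) and -0.233 in NKX2-2 (-0.252 to -0.227). Of the 65 CpG positions behind the GATA2 mean, 59 are those of the pair 1 loss beside the upstream start, where pair 3 lists a gain. No paired analysis was possible because the counts and mean losses above come from no fit that could take a replicate block. This holds for those counts and means alone. Each listed difference was already taken within a pair of same-numbered libraries. A limma fit of the GATA2 region listed in all 3 pairs, with or without the replicate block, was left out by choice and not for want of data, since its levels come from the calls that put it in the lists. The lists give no depth, so thinly covered regions cannot be told from well covered ones.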

Other observations

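The crossing of directions seen at the start of GATA2 was not limited to pairs 1 and 3. Of the 58 distinct regions with opposite directions, 9 were lower in pair 1 and higher in pair 3 and 11 the reverse, among those listed in these pairs alone. Between pairs 1 and 2, 7 were lower in pair 1 and higher in pair 2 and 10 the reverse. Between pairs 2 and 3, 11 were lower in pair 2 and higher in pair 3, and 4 the reverse. The region of MNX1, lower in pair 2 and higher in pair 3, came 2nd of the 58 by the smaller area score, at 305, after the 474 of GATA2.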
